A study of Mus musculus with 35 samples.

Results

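Resting type 1 conventional dendritic cells (cDC1) without Mycl were compared with cells that kept 1 intact Mycl allele. The comparison used 9 of the 35 arrays of the series, chosen by their titles: 4 arrays of MyclGFP/GFP cells, called KO here, and 5 arrays of MyclGFP/+ cells, called heterozygous, all of the steady-state set numbered 1. The cells had been sorted by flow cytometry from mouse spleen, and their total RNA was amplified and hybridised to Affymetrix arrays. The labels give these groups as steady state, without poly IC. Both groups carry a GFP allele at Mycl, on 1 chromosome in the controls and on both in the KO cells. Wild-type cells were not part of this set. The labels name biological replicates without saying whether each came from a different mouse, and they give neither age nor strain, so the p-values measure only the spread between these samples. A second steady-state set of 5 MyclGFP/GFP arrays and 5 wild-type arrays, set 2, was used for a measurement in other arrays.

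Mycl encodes L-MYC, a MYC family transcription factor that pairs with MAX, binds E-box sequences near gene starts and, in the immune system, is found mainly in dendritic cells. MYC proteins are best known for raising transcripts needed to build ribosomes, nucleotides and proteins. cDC1 engulf dead cells and cross-present antigen to CD8 T cells, with cytokines and surface ligands that set the response of those T cells. The gene-wise description below therefore concerns functions outside the growth programme: other RNA-handling machinery, signalling and immune genes, membrane traffic, adhesion and metabolism.

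Values are log2 levels after RMA, a procedure that corrects the background, equalises the arrays and summarises the probes of a transcript cluster, and 1 cluster stood for each gene. A gene was tested if at least 4 of the 9 arrays reached the 30th percentile of all named clusters. Differences are KO minus heterozygous on the log2 scale, with the standard error (SE) of the fit. Because RMA equalises the arrays, a difference is measured against the remaining transcripts on an array, and in sorted bulk cells fewer cells of a type and less RNA per cell cannot be told apart.

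The arrays showed the labelled cell type. All 13 cDC1 markers measured were tested, among them Xcr1, Clec9a and Batf3, and their mean level was 11.45 to 11.58 in the KO arrays and 11.24 to 11.43 in the heterozygous arrays. These ranges did not overlap, and 7 of the 13 markers were higher at an unadjusted limma p under 0.05, against 5.75% of all genes tested. The summed markers of other cells overlapped between the groups for cDC2 (8 of 11 tested, mean level 6.61 to 6.83 in KO and 6.57 to 6.80 in heterozygous arrays), monocytes and macrophages (11 of 14, 7.33 to 7.43 and 7.31 to 7.40), neutrophils (2 of 8, 5.41 to 5.45 and 5.32 to 5.47), B cells (7 of 10, 6.38 to 6.40 and 6.33 to 6.45), T and NK cells (7 of 13, 5.86 to 5.93 and 5.87 to 5.99) and erythroid cells (2 of 3, 6.12 to 6.24 and 5.92 to 6.13). Plasmacytoid dendritic cell markers (9 of 9) lay at 7.53 to 7.56 in KO and 7.45 to 7.53 in heterozygous arrays. These did not overlap, but the lowest KO array (7.534) lay barely above the highest heterozygous array (7.531). At an unadjusted limma p under 0.05, 0 of these markers were higher and 0 lower. Heterozygous array 5 stood apart on the second principal component, at 16.7 against -6.50 to 6.62 for the other arrays, and heterozygous array 2 had the highest value of the first, at 14.7. Values without heterozygous array 5 are given for some of the genes, not for every gene whose difference that array moved most.

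Of the 14023 genes tested, 3 passed limma's test at an adjusted p of 0.05 (0.0214%), all lower in KO cells: Mycl itself, Wdr75 and Abce1. No gene passed in the other direction. At an unadjusted p under 0.05 there were 1991 genes (14.2%), 806 higher (5.75%) and 1185 lower (8.45%), and the KO and heterozygous arrays did not overlap at all for 625 genes (4.46%), 244 higher (1.74%) and 381 lower (2.72%). The split into higher and lower depends on the scaling: after centring each array on its median 24.1% of the genes at that p were higher, and after quantile normalization 49.6%, against 40.5% here. The median log2 difference over all genes tested was 0.0029. With array weights, which let the fit trust the more typical arrays more, limma called 141 genes (1.01%), 41 higher (0.292%) and 100 lower (0.713%).

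Mycl transcripts checked the genotype labels. The log2 levels were 7.07, 6.88, 6.78 and 7.11 in KO arrays 1 to 4 and 9.91, 9.86, 9.85, 9.93 and 9.65 in heterozygous arrays 1 to 5. Every KO array lay far below every heterozygous array. Mycl fell by 2.88 ± 0.08 (SE), or 7.36-fold (limma adjusted p = 1.3e-08). The KO values stayed above the 5.71 to 5.82 at which the filter on low levels was set, and whether the probes of this cluster lie within the replaced sequence was not tested. Among the 80 tested genes nearest to Mycl on chromosome 4 (40 on each side), 10 were higher and 6 lower at an unadjusted p under 0.05. Of all genes tested, 5.75% were higher and 8.45% lower at that p, so the share of higher genes near Mycl was above that of all genes. None of the 80 passed limma's test, and their median difference was 0.03.

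Wdr75 encodes a WD-repeat protein of the nucleolus that belongs to the small subunit processome, which assembles on the growing ribosomal RNA precursor. Its levels were 8.24, 8.16, 8.15 and 8.36 in the KO arrays and 8.72, 8.71, 8.76, 8.71 and 8.63 in the heterozygous arrays. The highest KO array lay below the lowest heterozygous array. Wdr75 fell by 0.48 ± 0.05 (SE), 1.39-fold (limma adjusted p = 0.0106). Abce1 encodes an iron-sulphur ATPase that splits ribosomes after termination. It was at 9.49, 9.50, 9.47 and 9.55 in the KO arrays and at 9.84, 9.95, 9.93, 9.81 and 9.97 in the heterozygous arrays, again without overlap. Abce1 fell by 0.40 ± 0.05 (limma adjusted p = 0.0160). The adjusted p of both genes was above 0.05 under several alternatives. With all 8 groups of the series in 1 fit the adjusted p was 0.803 for Wdr75 and 0.851 for Abce1. When 1 array was left out, the call of Wdr75 was lost for KO arrays 1 and 3 and for heterozygous arrays 2 and 3. That of Abce1 was lost for each of the KO arrays and for heterozygous arrays 2 and 3 (highest limma adjusted p 0.0805 for Wdr75 and 0.129 for Abce1).

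**Figure D1:**
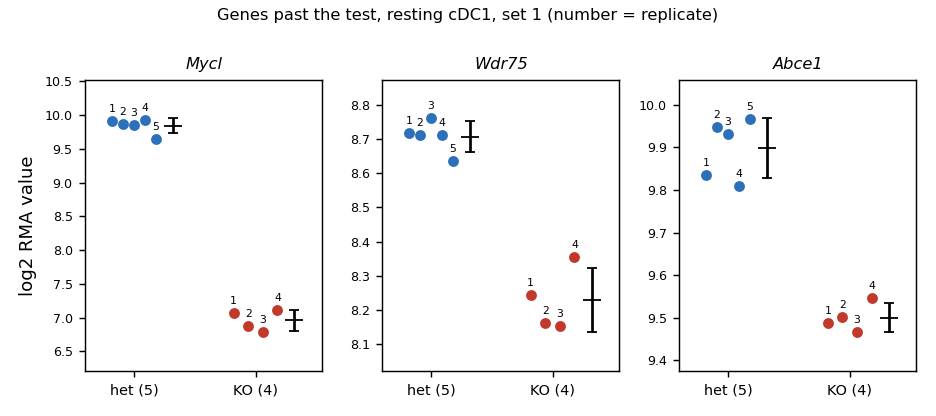
Log2 RMA values of Mycl, Wdr75 and Abce1 in each array of set 1, with a black bar for the mean and SD of each group (5 heterozygous and 4 KO arrays) and the replicate number above each point. Each panel has its own vertical axis, which does not start at 0. The KO arrays lie between 8.15 and 8.36 for Wdr75 and the heterozygous arrays between 8.63 and 8.76.

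The other genes described singly were taken by size from those outside the growth lists whose groups do not overlap and whose unadjusted p is under 0.01: 101 higher genes and 211 lower genes were eligible, and the 15 largest differences in each direction are described. Lack of overlap was thus a condition of the choice. None of these 30 passed limma's test over all genes, so their values are given as measured differences. For 8 of the 15 higher and 9 of the 15 lower genes the adjusted p was under 0.05 with array weights, against 1.01% of all genes tested. The same 9 arrays had been used to choose these genes, so this count is not a separate test of them.

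Promoter sequences are shown for 4 genes: the called genes Wdr75 and Abce1, and Egr2 and Gadd45b, 2 of the 3 higher genes with an E-box in such a window. Each is the 250 bases before the annotated start from RefSeq on GRCm38.p6, read 5′ to 3′ on the gene's strand. The motifs searched, on both strands, were the canonical E-box CACGTG, the variant CACGCG, the AP-1 site TGANTCA and the cyclic AMP response element TGACGTCA, and capitals mark a match.
Wdr75 (chr1:45794916-45795165, plus strand): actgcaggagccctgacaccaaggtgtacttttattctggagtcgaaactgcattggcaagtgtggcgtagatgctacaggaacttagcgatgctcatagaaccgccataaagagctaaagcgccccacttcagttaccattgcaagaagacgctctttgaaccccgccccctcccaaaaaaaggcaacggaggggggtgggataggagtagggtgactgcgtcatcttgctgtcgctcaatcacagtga
Abce1 (chr8:79711741-79711990, minus strand): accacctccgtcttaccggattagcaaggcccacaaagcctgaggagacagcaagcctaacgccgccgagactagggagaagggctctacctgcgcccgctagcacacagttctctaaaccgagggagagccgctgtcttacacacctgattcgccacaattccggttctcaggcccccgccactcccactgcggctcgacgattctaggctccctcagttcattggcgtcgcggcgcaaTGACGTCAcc
Egr2 (chr10:67535249-67535498, plus strand): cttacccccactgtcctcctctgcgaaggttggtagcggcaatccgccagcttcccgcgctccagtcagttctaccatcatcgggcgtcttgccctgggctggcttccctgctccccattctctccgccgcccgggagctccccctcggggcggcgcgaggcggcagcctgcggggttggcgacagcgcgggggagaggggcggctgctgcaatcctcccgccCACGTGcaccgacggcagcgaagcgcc
Gadd45b (chr10:80929841-80930090, plus strand): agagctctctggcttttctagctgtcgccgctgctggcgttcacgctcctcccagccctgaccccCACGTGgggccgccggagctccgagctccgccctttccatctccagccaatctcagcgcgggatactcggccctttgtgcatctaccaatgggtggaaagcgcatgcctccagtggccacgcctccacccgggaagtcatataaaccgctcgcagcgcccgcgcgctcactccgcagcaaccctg
The window of Wdr75 held none of the motifs. That of Abce1 held TGACGTCA close to the start, and those of Egr2 and Gadd45b each held CACGTG. Egr2 has 5 annotated start windows, and only the one shown held the E-box. Over the genes tested, 9.32% of the 11090 with a window held CACGTG and 15% the variant. Among the 15 higher genes 13 had a window, and CACGTG was found for 3 (Egr2, Gadd45b and Asb2) and the variant for none. Among the 15 lower genes 11 had a window, CACGTG was found for none, and the variant for 4 (Cdca7l, Nt5dc2, Ranbp1 and Sestd1). Mycl's own window also held the variant. The AP-1 site was found for no higher gene and for 2 lower genes (Emp1 and Ranbp1), against 5.76% of the genes tested. TGACGTCA was found for no higher gene and for 1 lower gene (Trmt61a), against 2.78% of the genes tested. A match is a description of these letters, not a bound site.

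Ctla4, an inhibitory receptor that binds the costimulatory ligands of antigen-presenting cells, was at 9.32, 9.23, 9.11 and 9.08 in the KO arrays and 8.86, 8.51, 8.69, 8.56 and 8.49 in the heterozygous arrays. The difference was 0.57 ± 0.08 (SE; limma adjusted p = 0.0668), with the lowest adjusted p of the 15. Hivep2, a zinc finger protein that binds NF-kB-like motifs, had the next lowest p (0.0775). Its levels were 7.47, 7.49, 7.48 and 7.59 in KO arrays and 7.09, 7.28, 7.18, 6.98 and 7.15 in heterozygous arrays, a difference of 0.37 ± 0.06. The 4 KO values of Hivep2 lay close together, and those of the heterozygous arrays were more spread. Dusp6, a phosphatase that switches off the kinase ERK, was at 9.68, 9.55, 9.87 and 9.52 in KO and 9.33, 9.02, 8.98, 9.13 and 8.86 in heterozygous arrays, a difference of 0.59 ± 0.10 (limma adjusted p = 0.0807). Heterozygous array 1 was the closest to the KO arrays.

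The 15 higher genes included 4 surface ligands and cytokines. Tnfsf9, the ligand of the T cell costimulator 4-1BB, was at 9.31, 9.02, 9.19 and 9.18 in the KO arrays and 8.86, 8.89, 8.56, 8.57 and 7.92 in the heterozygous arrays. The difference was 0.61 ± 0.17 (limma adjusted p = 0.190), and 0.45 without heterozygous array 5, which was the lowest. Il12b, which encodes the p40 chain of interleukin 12, was at 12.62, 12.37, 12.39 and 12.29 in KO and 12.12, 12.02, 12.14, 12.08 and 11.44 in heterozygous arrays, a difference of 0.46 ± 0.13 (adjusted p = 0.216 by limma) that was 0.33 without heterozygous array 5. Here too that array lay well below the rest, and the other 4 heterozygous arrays of Il12b lay within a narrow range. Il15, a cytokine that maintains NK and memory CD8 T cells, was at 8.34, 7.73, 8.12 and 7.95 in KO and 7.73, 7.66, 7.70, 7.54 and 7.12 in heterozygous arrays. The lowest KO array of Il15 lay just above the highest heterozygous array. Cd274, the inhibitory ligand PD-L1, was at 8.85 to 9.40 in KO and 8.18 to 8.84 in heterozygous arrays, a difference of 0.45 ± 0.14. Without heterozygous array 5 the differences of Il15 and Cd274 were 0.38 and 0.35, and without KO array 1 that of Cd274 was 0.33.

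Prostaglandin and chemoattractant genes were among them as well. Ptgs2, the inducible cyclooxygenase that starts prostaglandin synthesis, was at 8.76, 8.50, 8.93 and 8.83 in KO and 8.44, 8.24, 8.01, 7.96 and 8.29 in heterozygous arrays, a difference of 0.57 ± 0.11 (limma adjusted p = 0.108). This gene did not rest on heterozygous array 5, without which the difference was 0.59. Ccrl2, an atypical receptor that holds the attractant chemerin at the cell surface, was at 8.94, 8.97, 9.04 and 8.93 in KO and 8.67, 8.36, 8.55, 8.38 and 8.01 in heterozygous arrays. Its KO values were nearly alike, and the difference was 0.58 ± 0.11 (limma adjusted p = 0.108), or 0.48 without heterozygous array 5. Il21r, the receptor of the T helper cytokine interleukin 21, lay at 8.81 to 9.35 in KO and 8.41 to 8.80 in heterozygous arrays. The difference was 0.37 ± 0.11, and 0.26 without KO array 1, the highest.

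Stress and early response genes included Egr2, an inducible zinc finger transcription factor whose promoter is shown above. Egr2 was at 12.13, 11.96, 12.02 and 12.14 in KO and 11.92, 11.62, 11.66, 11.74 and 11.05 in heterozygous arrays. The difference of 0.46 ± 0.14 (limma adjusted p = 0.223) was 0.33 without heterozygous array 5, the lowest. Gadd45b, which is induced by stress and activates p38 signalling, was at 11.71, 11.42, 11.59 and 11.51 in KO and 11.30, 11.16, 11.13, 11.25 and 10.87 in heterozygous arrays, a difference of 0.42 ± 0.09 (limma adjusted p = 0.128) and of 0.35 without that array. All 4 KO arrays of Gadd45b were above 11.4, a level that no heterozygous array reached. The last 3 were Asb2, a substrate receptor of a cullin ubiquitin ligase, Cpne8, a calcium-dependent membrane-binding copine, and Glipr2, a Golgi membrane protein, with differences of 0.44 ± 0.10 (0.34 without heterozygous array 5), 0.39 ± 0.07 and 0.39 ± 0.11. Cpne8 had an adjusted p of 0.0840 and Asb2 of 0.162. Without KO array 1 the difference of Glipr2 was 0.27.

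**Figure D2:**
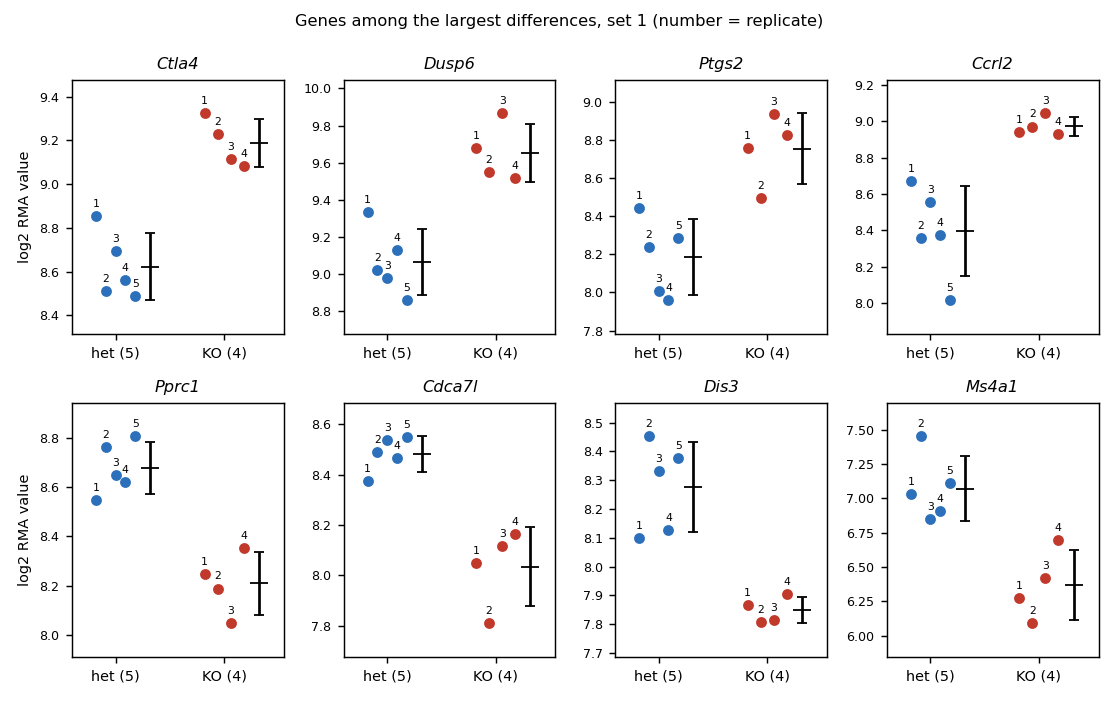
Log2 RMA values in each array of set 1 for 4 genes higher in KO (upper row) and 4 lower in KO (lower row), with the mean and SD of each group in black and the replicate number above each point. The axes differ between panels and do not start at 0. The KO arrays of Ctla4 lie between 9.08 and 9.32 and the heterozygous arrays between 8.49 and 8.86.

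On the lower side, Pprc1, a coactivator related to PGC-1 that serves mitochondrial gene expression, was at 8.25, 8.19, 8.05 and 8.35 in KO and 8.55, 8.76, 8.65, 8.62 and 8.81 in heterozygous arrays. The difference was -0.47 ± 0.07 (limma adjusted p = 0.0680), the lowest adjusted p of the 15. Cdca7l, a nuclear protein that binds MYC, was at 8.05, 7.81, 8.12 and 8.16 in KO and 8.37, 8.49, 8.54, 8.47 and 8.55 in heterozygous arrays, a difference of -0.45 ± 0.07 (limma adjusted p = 0.0749). The heterozygous arrays of Cdca7l lay within a narrow band and KO array 2 was the farthest from them. Dis3, the ribonuclease of the nuclear exosome, was at 7.87, 7.81, 7.81 and 7.90 in KO and 8.10, 8.45, 8.33, 8.13 and 8.38 in heterozygous arrays, a difference of -0.43 ± 0.07 (limma adjusted p = 0.0840). The KO arrays of Dis3 lay within a narrow range. Tma16, a factor bound to the maturing large ribosomal subunit that was not on the growth lists, was at 5.89 to 6.11 in KO and 6.23 to 6.57 in heterozygous arrays, a difference of -0.46 ± 0.07.

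Ms4a1 had the largest difference of the 30. It encodes CD20, a membrane protein best known from B cells, and was at 6.27, 6.09, 6.42 and 6.69 in KO and 7.03, 7.45, 6.85, 6.91 and 7.11 in heterozygous arrays. The difference was -0.70 ± 0.14 (limma adjusted p = 0.108), and -0.56 without heterozygous arrays 2 and 5. Of the 7 B cell markers tested 5 lay above 0, with Ms4a1 and Cd22 (-0.03) below. Cd79b was at 6.99 in KO and 6.94 in heterozygous arrays on average, and Pax5 at 6.42 and 6.32. Emp1, a small membrane protein, was at 7.67, 7.45, 7.77 and 7.99 in KO and 8.08, 8.13, 8.08, 8.08 and 8.78 in heterozygous arrays. Heterozygous array 5 was far above the other 4, and the difference of -0.51 ± 0.15 (limma adjusted p = 0.219) was -0.37 without it.

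The remaining lower genes served several functions. Abcb1b, a drug efflux pump, differed by -0.46 ± 0.09, and Fads1, a fatty acid desaturase that makes arachidonic acid, by -0.41 ± 0.09. Fastkd1, a regulator of mitochondrial transcripts, differed by -0.45 ± 0.11. Trmt61a, the catalytic subunit of a tRNA adenosine methyltransferase, was at -0.40 ± 0.10, and Ranbp1, which promotes hydrolysis of the GTP bound to RAN in nuclear transport, at -0.38 ± 0.09. Champ1, a protein of chromosome alignment, lay at 8.72 to 8.97 in KO and 9.13 to 9.34 in heterozygous arrays (-0.39 ± 0.06; limma adjusted p = 0.0807). Nt5dc2, Sestd1 and Alpk2 differed by -0.41 ± 0.09, -0.40 ± 0.09 and -0.38 ± 0.12.

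**Figure D3:**
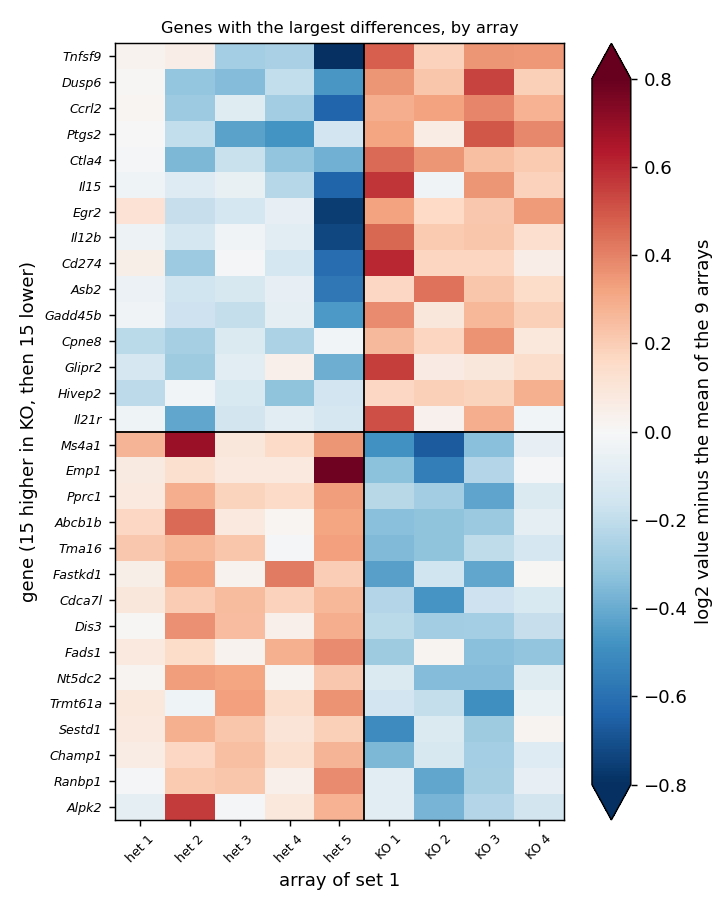
Log2 level of each of the 30 genes in each array of set 1 minus its mean over the 9 arrays (colour, log2 scale, with limits at -0.8 and 0.8). Heterozygous array 5 has the strongest blue for Tnfsf9, Egr2 and Il12b and the strongest red for Emp1.

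The functions outside the growth lists were then read list by list, as counts of members at an unadjusted p under 0.05 beside the 5.75% higher and 8.45% lower of all genes tested. No member of these 31 lists passed limma's test over all genes. In the lists of RNA handling nearly all members at that p were lower. Of 24 nuclear pore proteins, the channel of the nuclear envelope, 11 were lower and 0 higher at that p, and 22 lay below 0 (median -0.11). Pom121, an anchor of the pore in the membrane, was at 9.21 to 9.35 in KO and 9.43 to 9.62 in heterozygous arrays, a difference of -0.23 ± 0.05. Nup214, on the cytoplasmic face, differed by -0.20 ± 0.05, and Aaas by -0.25 ± 0.08. Of 29 nuclear import and export receptors and their RAN regulators, 8 were lower and 0 higher (median -0.11). This count was 4 without KO array 3, 5 without heterozygous array 2 or 3, and 14 without heterozygous array 5. The members included Ranbp1, the importin Ipo13 (-0.17 ± 0.05) and the tRNA exporter Xpot (-0.19 ± 0.06).

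tRNA and small RNA genes showed the same sign. Of 77 genes that modify or process tRNA, 21 were lower and 0 higher at an unadjusted p under 0.05, and 70 lay below 0 (median -0.10). Qtrt1, a subunit of the enzyme that inserts queuine into tRNA, was at 8.31 to 8.47 in KO and 8.58 to 8.80 in heterozygous arrays, a difference of -0.33 ± 0.06 (limma adjusted p = 0.0840). Thg1l, which adds a guanine to histidine tRNA, differed by -0.29 ± 0.07. RNA polymerase III, which transcribes tRNA genes, and its factors had 9 lower and 0 higher members of 25 (median -0.09). Its largest subunit Polr3a differed by -0.23 ± 0.05, and the TFIIIC subunits Gtf3c5 and Gtf3c4 by -0.30 ± 0.09 and -0.28 ± 0.08. Without KO array 3 the count of lower polymerase III genes was 5.

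Arginine methyltransferases and the factors that assemble spliceosomal snRNPs had the lowest list median, -0.15, with 13 of 28 members lower (8 without KO array 2) and 1 higher. Prmt5, which methylates Sm proteins, was at 8.82 to 9.01 in KO and 9.10 to 9.47 in heterozygous arrays, a difference of -0.36 ± 0.07 (limma adjusted p = 0.128). Without heterozygous array 5 the difference of Prmt5 was -0.31. Carm1, a coactivator methyltransferase, differed by -0.24 ± 0.06. Prmt2 was the exception, at 7.29 to 7.40 in KO and 6.99 to 7.19 in heterozygous arrays, a difference of 0.25 ± 0.05 (limma adjusted p = 0.111). RNA decay genes had 12 lower and 2 higher members of 55 (median -0.08), and 7 lower ones without KO array 3 or 5 without heterozygous arrays 2 and 5. The lower ones included the exosome subunits Exosc2 (-0.29 ± 0.06) and Exosc7 (-0.27 ± 0.06) beside Dis3. The 2 higher ones were Btg1 and Btg2, antiproliferative genes that recruit deadenylases, at 0.18 ± 0.05 and 0.21 ± 0.06. Splicing factors had 13 lower and 1 higher member of 76 (median -0.06), with Sf3a2 at -0.19 ± 0.05 and the large spliceosome scaffold Prpf8 at -0.15 ± 0.04. The splicing count was 7 without KO array 2, 6 without KO array 3 and 21 without heterozygous array 5. Over all genes tested the share of lower genes at this p was 6.89%, 5.46% and 9.19% in these settings.

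Mitochondrial protein import stood with them, with 11 lower and 1 higher of 37 members (median -0.11), 17 lower without heterozygous array 1 and 6 without heterozygous arrays 2 and 5. Over all genes tested, 1553 of 14007 were lower at an unadjusted p under 0.05 without heterozygous array 1. The same count was 803 of 14038 without heterozygous arrays 2 and 5. With all 8 groups in 1 fit, 1 import gene was lower, against 3.54% of all genes tested. Timm10, an intermembrane space chaperone of incoming carriers, was at 7.66 to 8.01 in KO and 8.001 to 8.45 in heterozygous arrays, a difference of -0.49 ± 0.10 (limma adjusted p = 0.141). The channel subunit Timm23 differed by -0.25 ± 0.07. Mitochondrial solute carriers had 5 higher and 3 lower of 43 (median -0.02). The higher count was 1 without KO array 1, 2 without KO array 2 and 3 without heterozygous array 2, and without heterozygous array 5 the list had 2 higher and 7 lower. Polyamine and methionine metabolism had 6 lower and 0 higher of 18 (median -0.07; 3 lower without KO array 3 or without heterozygous arrays 2 and 5), among them Mri1, of the methionine salvage route (-0.32 ± 0.06), the vitamin B12-dependent methionine synthase Mtr (-0.31 ± 0.08) and the spermidine synthase Srm (-0.26 ± 0.09). Chromatin modifiers, the largest list, had 11 lower and 2 higher of 108 members (median -0.03; 6 lower without KO array 3). Iron and iron-sulphur genes had 3 lower and 0 higher of 36 (median -0.07), and 5 lower ones without KO array 4 or heterozygous array 1 or 5. Bola2, a glutaredoxin partner, was at -0.41 ± 0.09. In the iron list 8.33% were at an unadjusted p under 0.05, all lower, close to the 8.45% lower of all genes tested. In the chromatin list 12% were at that p in either direction, against 14.2% of all genes tested.

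The next 3 lists had more higher than lower members at that p. The NF-kB pathway had 10 higher and 1 lower of 40 members (median 0.05). The count was 3 without KO array 1, 6 without KO array 3 or heterozygous array 4, and 5 without heterozygous array 3 or without heterozygous arrays 2 and 5. Over all genes tested, the higher genes at that p also went from 806 of 14023 to 560 of 14092 without KO array 1. They were 528 of 14091 without KO array 3 and 616 of 14038 without heterozygous arrays 2 and 5. The 3 smallest p-values of the NF-kB list were those of Map3k8, the kinase TPL2, and of the inducible regulators Nfkbiz and Nfkbid. Their differences were 0.26 ± 0.07, 0.26 ± 0.08 and 0.27 ± 0.08, and 0.20, 0.21 and 0.20 without heterozygous array 5. Nfkbid was at 9.46 to 9.64 in KO and 8.99 to 9.45 in heterozygous arrays. Rab GTPases, which direct vesicle traffic, had 9 higher and 1 lower of 52 (median 0.05; 3 higher without KO array 2 and 5 without KO array 3), led by Rab37 at 0.33 ± 0.07 and Rab29 at 0.20 ± 0.05. FOXO targets and quiescence genes had 9 higher and 2 lower of 45 (median 0.06). Arrdc4, an arrestin-domain protein, was at 8.94 to 9.09 in KO and 8.49 to 8.80 in heterozygous arrays (0.34 ± 0.07), while Foxp1 lay lower at -0.32 ± 0.08. Without heterozygous array 5 the differences of Arrdc4 and Foxp1 were 0.29 and -0.25.

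Of 54 cytokine and growth factor receptors 7 were higher and 4 lower at an unadjusted p under 0.05 (median 0.05): beside Il21r these included the interleukin 10 receptor chain Il10ra (0.20 ± 0.06) and, lower, Il1rap, the shared chain of interleukin 1 receptors (-0.19 ± 0.05). The lower count was 1 without KO array 1 or heterozygous array 5 and 2 without heterozygous array 2. Receptors for lipids, nucleotides and other small ligands had 7 higher and 2 lower of 36 (median 0.04). Ffar2, which senses short-chain fatty acids, was at 7.80 to 8.03 in KO and 7.46 to 7.70 in heterozygous arrays (0.32 ± 0.06; limma adjusted p = 0.108), while the adhesion receptor Adgrf5 lay lower at -0.54 ± 0.16. Integrins and adhesion molecules had 6 higher and 0 lower of 53 (median 0.03; 3 higher without KO array 3). Itgae, the cDC1 integrin chain CD103, had a difference of 0.83 ± 0.23 with overlapping groups, at 9.56 to 10.68 in KO and 8.97 to 9.89 in heterozygous arrays.

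The remaining lists are given here by their counts. Autophagy had 1 higher and 2 lower of 48, V-ATPase and lysosomal membrane genes 1 and 0 of 36, lipid efflux, storage and oxidation 1 and 0 of 54, circadian clock genes 1 and 1 of 19, and p53 targets 2 and 2 of 32. Within V-ATPase and lysosomal genes Cd63, a tetraspanin of late endosomes, stood alone at 0.37 ± 0.10 (11.13 to 11.76 in KO and 10.98 to 11.14 in heterozygous arrays). Without KO array 1 the difference of Cd63 was 0.27. Glucocorticoid-responsive genes had 2 higher and 2 lower of 22, Notch pathway genes 3 and 2 of 37 (6 higher without KO array 4 or heterozygous array 1), redox genes 3 and 5 of 48, and snoRNA host genes 1 and 2 of 13. mTORC1 and nutrient sensing genes had 1 and 7 of 54 (12 lower without heterozygous array 1), and ER translocation and coat genes 1 and 7 of 66 (4 and 3 lower without KO array 1 and KO array 3). The 5 lower redox genes became 9 without heterozygous array 1 and 3 without KO array 1, 2 or 3 or heterozygous array 2, and the 3 higher ones became 5 without heterozygous array 2. Transcription factors of lymphoid and activated cells had 5 and 0 of 34 (3 higher without KO array 4). Jag1, a Notch ligand, was at 7.25 to 7.78 in KO and 7.03 to 7.25 in heterozygous arrays (0.41 ± 0.09, and 0.32 without KO array 1). Itch, a ubiquitin ligase, differed by 0.25 ± 0.05. Idh1, the cytosolic isocitrate dehydrogenase, was at 0.36 ± 0.10 and the glutathione transferase Gsto1 at -0.29 ± 0.08. The list counts also depended on the model. With all 8 groups in 1 fit, 2.4% of all genes tested were higher and 3.54% lower at an unadjusted p under 0.05. Nuclear pore, tRNA modification, arginine methylation, splicing and RNA decay then had 4, 9, 5, 3 and 3 lower members, and NF-kB 2 higher. After quantile normalization the shares were 6.6% and 6.7%. Nuclear import, polymerase III and chromatin then had 5 lower members each, and cytokine receptors 15 higher.

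**Figure D4:**
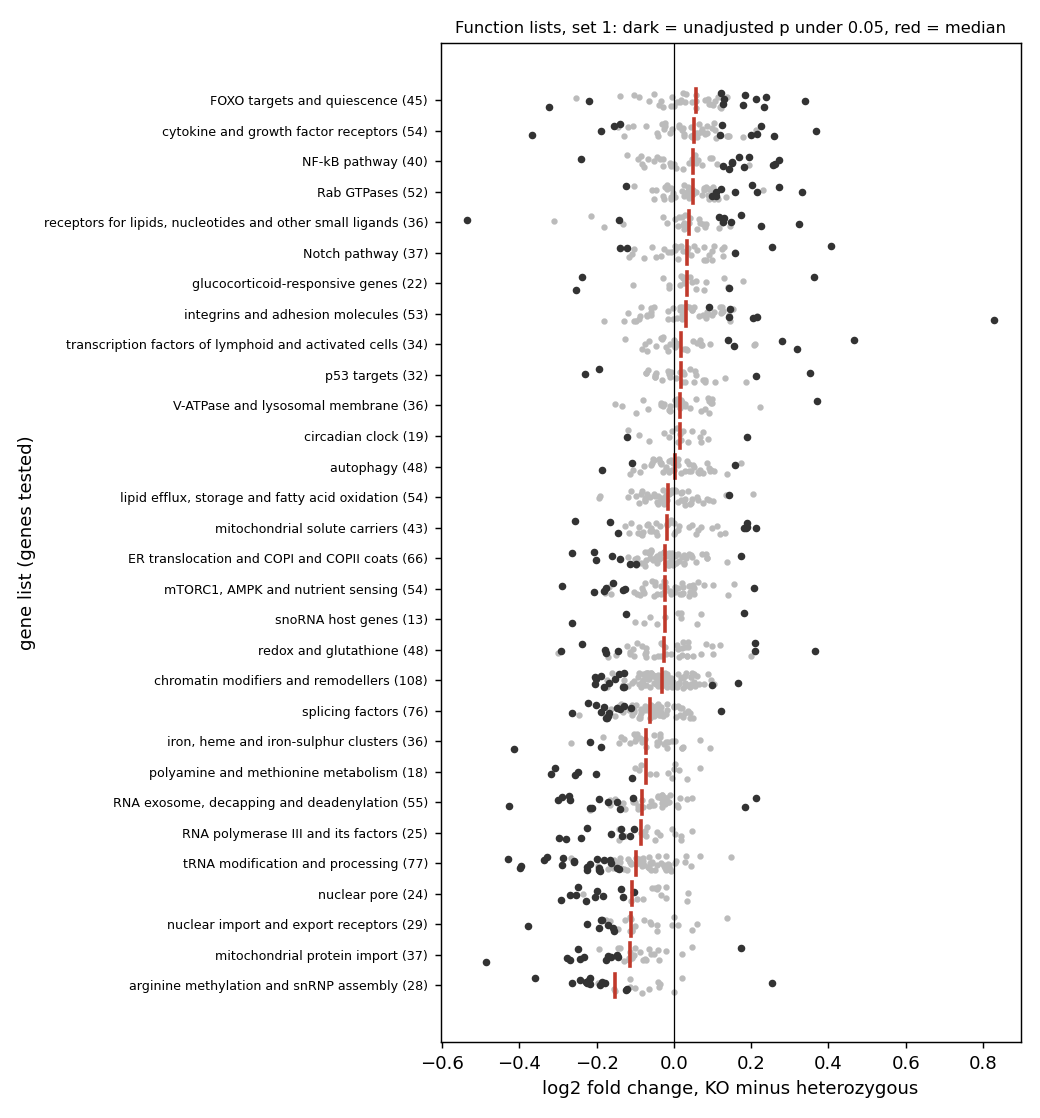
Log2 difference (KO minus heterozygous) of every tested member of 30 of the 31 function lists, with the number of genes tested in brackets, dark points for an unadjusted p under 0.05 and a red bar at the median. The list medians run from -0.15 for arginine methylation and snRNP assembly to 0.06 for FOXO targets and quiescence genes.

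Several immediate early genes, which respond within minutes to activation and to tissue dissociation, lay higher in the KO arrays too. Of the 28 tested 15 were higher and 0 lower at an unadjusted p under 0.05, against 5.75% higher and 8.45% lower of all genes tested, and 25 lay above 0 (median 0.18). Their mean level was 10.48 to 10.56 in the KO arrays and 10.17 to 10.48 in the heterozygous arrays, with heterozygous array 5 the lowest. Without heterozygous arrays 2 and 5, 11 were higher and 0 lower. In set 2 the median of the 28 genes was 0.02, and 3 passed limma's test there as higher and 1 as lower. In set 1 these genes, of which Egr2 is also among the 15 higher genes, lay on the same side as the NF-kB list and the immune genes above. Their part in those differences was not tested. An example is Dusp1, a phosphatase of stress kinases, at 12.81 to 13.03 in KO and 12.04 to 12.93 in heterozygous arrays (0.36 ± 0.14, and 0.24 without heterozygous array 5). Plk3, a stress-responsive kinase counted among the p53 targets, was at 11.04 to 11.15 in KO and 10.36 to 10.95 in heterozygous arrays (0.35 ± 0.10, and 0.25 without heterozygous array 5).

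Set 2 measured the loss of Mycl against wild-type cells in other arrays, and called 861 of 14012 genes (6.14%), 530 higher (3.78%) and 331 lower (2.36%). Its results were known in part when the genes were chosen. Of the 15 higher genes of set 1, 13 lay above 0 in set 2 and 5 passed limma's test there: Dusp6 (0.47 ± 0.12), Ptgs2 (0.52 ± 0.12), Asb2 (0.30 ± 0.08), Cpne8 (0.51 ± 0.06) and Il21r (0.68 ± 0.19). Of the 15 lower genes 12 lay below 0, 5 passed as lower and 1, Emp1 (0.40 ± 0.08), as higher. The 5 were Ms4a1 (-0.58 ± 0.10), Tma16 (-0.27 ± 0.07), Fastkd1 (-0.34 ± 0.07), Cdca7l (-0.45 ± 0.09) and Champ1 (-0.25 ± 0.07). Wdr75 fell by 0.41 ± 0.08 in set 2 (limma adjusted p = 0.00978) and Abce1 by 0.26 ± 0.07 (limma adjusted p = 0.0391). The E-box genes Egr2 and Gadd45b were at -0.14 ± 0.09 and 0.26 ± 0.11 there. In set 2 the list medians were 0.09 for nuclear pore proteins, -0.04 for nuclear import and export receptors, 0.01 for tRNA modification, 0.01 for RNA polymerase III, -0.01 for RNA decay, -0.03 for arginine methylation and snRNP assembly, and -0.06 for splicing factors, which was also their median in set 1. Mitochondrial protein import was at -0.05 in set 2 and -0.11 in set 1, and polyamine and methionine metabolism at -0.10 and -0.07. NF-kB, Rab, FOXO and cytokine receptor lists were at 0.05, 0.02, 0.05 and 0.06 in set 2. In set 1 these 4 were at 0.05, 0.05, 0.06 and 0.05.

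**Figure D5:**
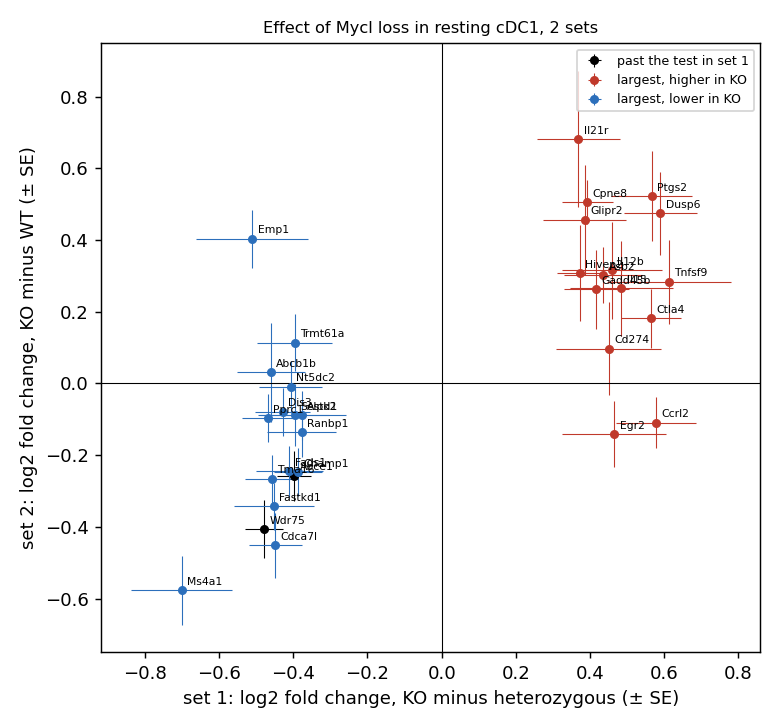
Log2 difference with its SE in set 1 (KO minus heterozygous, horizontal) and in set 2 (KO minus wild type, vertical) for Wdr75, Abce1 and the 30 genes chosen by size in set 1. Mycl is left out for scale. Emp1 lies at -0.51 and 0.40, and Ccrl2 at 0.58 and -0.11.

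The difference between the KO effects of the sets was tested in 1 fit, each effect taken within its set. It passed limma's test for 151 of 14526 genes (1.04%), 37 with a higher (0.255%) and 114 with a lower effect (0.785%) in set 1. Since the controls were heterozygous in set 1 and wild type in set 2, control genotype and set cannot be told apart. Of the 121 genes chosen by size, test or rank within a function list, 7 differed. The choice used the set 1 values, which also enter this difference. This count therefore cannot be read against the share of all genes. Mycl fell less in set 1 (-2.88) than in set 2 (-4.03). Ccrl2 was at 0.58 in set 1 and -0.11 in set 2 (difference 0.69, limma adjusted p = 0.0168). Emp1 was at -0.51 and 0.40 (difference -0.91, limma adjusted p = 0.0168). The nuclear pore gene Aaas was at -0.25 and 0.28, Carm1 at -0.24 and 0.11, Btg2 at 0.21 and -0.19, and Spen, a transcriptional corepressor of the Notch list, at -0.14 and 0.19. For Mycl, Ccrl2 and Emp1 the difference passed under all settings run, and for the other 4 it missed 0.05 in at least 1 setting, with limma adjusted p-values of up to 0.0957 (Aaas), 0.169 (Carm1), 0.1 (Btg2) and 0.158 (Spen).

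Outside the named genes, the related factor Myc was at 8.61 in both groups of set 1, a difference of -0.01 ± 0.13, against a rise of 1.18 ± 0.11 in set 2, and the difference between the sets passed limma's test (adjusted p = 0.00323). Bcl2, which blocks apoptosis, was at -0.08 ± 0.07 in set 1 against 0.63 ± 0.07 (adjusted p = 0.00203 for the difference by limma). Cd14, the coreceptor for lipopolysaccharide, was at 0.03 ± 0.14 in set 1 and -1.42 ± 0.10 in set 2 (adjusted p = 0.000198 for the difference by limma). Cd22, among the B cell markers above, was at -0.03 ± 0.07 in set 1 and 0.70 ± 0.08 in set 2 (adjusted p = 0.00373 for the difference by limma). These 4 genes were chosen after their values were seen. Of the cell cycle and DNA replication genes, 75 of 80 lay below 0 in set 1 (median -0.16), and the median was 0.15 in set 2. The difference passed for 6 of 82 of them (7.32%), all lower in set 1: Cdc6, Cdt1, Rpa2, Pold2, E2f8 and Pola2.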

How the data were processed

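Arrays of sorted cDC1 were analysed from the deposited table of log2 values for 35556 transcript clusters on 35 arrays. The authors made these log2 values with RMA in the Affymetrix Expression Console, per the submitters' processing notes. For the versions, not given in the sources used here, none is stated. Medians of the arrays (6.50 to 6.57 in set 1, 5.55 to 5.60 in set 2) and the counts of exactly equal values between arrays differed between sets, so the sets were treated as normalized separately. The spike-ins named in the series' design were not used here.

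Clusters were named through the platform annotation. 21789 had 1 gene symbol, 1621 several and 12146 were not listed; for 999 of the 19938 genes the cluster with the highest mean over all arrays was used. The filter at the 30th percentile left 14023 genes.

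Linear models were fitted in R 4.3.3 with limma 3.58.1 (lmFit, then eBayes). Tests were two-sided and p-values were adjusted by the Benjamini-Hochberg method across every gene tested. Only the 2 groups of set 1 entered the fit. The difference between sets was a contrast of 4 groups. The steps were tested on simulated data. The number of arrays limits the precision.

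Genes are named if they passed an adjusted p of 0.05; if they were among the 15 largest differences in each direction, outside growth lists and ribosomal, respiratory chain and unnamed genes, with groups that do not overlap and an unadjusted p under 0.01; or if they had 1 of the 3 smallest p-values in a function list. 1 of the 31 function lists is not reported here. Exceptions are marked in the text, and the markers, the cell cycle genes and other members of fixed lists are given for their counts. The genes, lists and arrays to compare were chosen with earlier results of these data known. Alternatives changed the array weights, the groups in the fit, the filter, the normalization, the cluster per gene, the variance prior, the replicate block and the arrays left out; leaving out heterozygous arrays 2 and 5 together was added after seeing the data. Replicate numbers of the titles were not taken to pair the arrays.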

Additional observations from a re-analysis of the deposited data

Results flagged for a closer look

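In 242 groups of arrays of the named genes, the highest or lowest array was set against the others by Dixon's rule, and 16 stood apart, where chance marks about 1 in 20. Heterozygous array 5 accounted for 8. It was low for Mycl (9.65 against 9.85 to 9.93 in the other 4), Il12b (11.44 against 12.02 to 12.14), Asb2 (9.07 against 9.48 to 9.59), Plk3 (10.36 against 10.79 to 10.95) and Rxra (7.08 against 7.24 to 7.29), and high for Emp1 (8.78 against 8.08 to 8.13), Atg2a (9.01 against 8.85 to 8.89) and Sec24a (8.85 against 8.62 to 8.65). Among the other heterozygous arrays, array 2 was high for Itch at 10.25, and array 1 was low for Sf3a2 at 9.43 and Timm10 at 8.001. Among the KO arrays, array 1 was high for Glipr2 at 9.23, array 4 for Abcb1b at 8.93 and array 2 for Fads1 at 9.08, while array 3 was low for Stt3b at 9.28 and array 2 for Gsto1 at 7.43.

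The effect of Mycl loss differed between the sets by limma's test of the difference for 7 of the 121 genes chosen by size, test or rank within a function list. The choice used the set 1 values that also enter this difference. Set 1 minus set 2 was 1.15 for Mycl, 0.69 for Ccrl2, -0.91 for Emp1, -0.52 for Aaas, -0.35 for Carm1, 0.40 for Btg2 and -0.33 for Spen, on the log2 scale.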

How the results depend on the processing

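The 3 genes called by limma in set 1 became 141 with array weights, 5 with a filter at the 50th percentile, 6 after quantile normalization, 1 to 7 when 1 array was left out (1 without KO array 1 or 3 or heterozygous array 2 or 3, 5 without heterozygous array 1, 7 without heterozygous array 5) and 1 without heterozygous arrays 2 and 5. The 1991 genes at an unadjusted p under 0.05 became 833 with all 8 groups in 1 fit and 1297 to 2444 with 1 array left out (1297 without KO array 3). The 625 genes without overlap became 765 to 1600 with fewer arrays (1194 without heterozygous array 1, 1089 without KO array 2, 1600 without KO array 4) and 1231 without heterozygous arrays 2 and 5; fewer arrays overlap less easily. The 151 genes that differed between sets became 600 with array weights, 20 without heterozygous arrays 2 and 5, and 31 to 204 with 1 array of set 1 left out, the lowest without KO array 3. The deviations of KO and heterozygous arrays with the same replicate number correlated at 0.17, -0.40, -0.06 and -0.23. The labels do not say whether these numbers pair the arrays, and no pairing was assumed. With the replicate number as a block 1 gene was called in set 1, 1519 had an unadjusted p under 0.05 and 30 differed between sets. Of the named genes' values under these settings, 2347 kept their sign and their side of the threshold, 44 newly passed it, 16 no longer passed it and none changed sign. Only 3 of the 121 named genes had passed in the main fit, so most of the 2347 passed in neither fit. The genes were chosen from the same arrays, so the kept signs are not a separate test. Mycl passed in 20 of 20 settings, Wdr75 in 13 and Abce1 in 11. Medians of autophagy, V-ATPase, mTORC1, circadian clock, p53, lipid, snoRNA host, redox and lymphoid transcription factor genes lay on both sides of 0.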

Other observations

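Dimt1, a methyltransferase of the small ribosomal subunit on the growth lists, had a difference of -0.61 ± 0.10 (SE; limma adjusted p = 0.0807), the third largest in size among lower genes. Nnt, the mitochondrial proton-pumping transhydrogenase, varied between arrays of the same group: it was at 7.42, 8.51, 7.51 and 9.31 in KO arrays 1 to 4 and at 8.47, 7.89, 8.72, 8.49 and 8.97 in heterozygous arrays 1 to 5. Both genes were chosen after their values were seen.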
